A study of Homo sapiens with 2 samples.

Results

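The clustered protocadherins are cell-surface adhesion proteins encoded by tandem gene arrays, named alpha, beta and gamma, on chromosome 5. The members were all protein-coding genes on chromosome 5 in the RefSeq table for GRCh38 with a symbol that starts with PCDHA, PCDHB or PCDHG. This gave 53 of 19970 protein-coding genes on chromosomes 1 to 22 and X, of which 15 were alpha, 16 beta and 22 gamma genes. The histone peaks described are those with a summit in a window of 900 kb (hg38), which runs from 86.14 kb before the PCDHA1 start to 87.03 kb past the common end of the gamma genes. They were 13 of 64784 for H3K27ac and 23 of 139511 for H3K4me1.

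The cells were the enzalutamide-resistant form of C4-2B, an LNCaP-derived line of human prostate cancer that grows without androgen. They had been grown for at least 6 months with enzalutamide, an androgen receptor antagonist. CUT&Tag, in which a transposase tethered to an antibody cuts the DNA around marked nucleosomes, gave 1 library for H3K27ac and 1 for H3K4me1 from 100000 cells each. H3K27ac marks active enhancers and promoters, and H3K4me1 marks enhancers and the flanks of promoters. Both libraries came from the same resistant line, and sensitive cells, a background library and replicates were not analysed here, so every value describes these 2 libraries and no difference was tested. The luminal prostate genes FOXA1, KLK2, KLK3 and KRT8 carried both marks at their starts (4 of the 4 luminal markers with a listed start), with 74, 117, 106 and 178 H3K27ac fragments. The basal markers KRT5 and TP63 and the blood marker PTPRC had no H3K27ac peak there. H3K4me1 was called at both basal starts, with 6 fragments at KRT5 and 16 at TP63, and not at PTPRC. Of 6 neuronal markers, 3 had an H3K27ac peak at the start (MAP2, RBFOX3 and SYP, with 18, 44 and 38 fragments). CHGA had H3K4me1 alone (7 fragments), and no peak of either mark was called at DCX or TUBB3. Over all protein-coding genes with a known start, 61.6% had H3K27ac at the start, 64.2% had H3K4me1 and 58.8% had both marks.

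In neurons, each alpha or gamma transcript joins a single variable first exon, with its own promoter, to constant exons shared by the whole array. Beta genes consist of the variable type of exon alone. CTCF and cohesin are known to loop chosen promoters to enhancers at the 3' sides of the arrays, and DNA methylation of the other promoters keeps them silent. The genes named C-type (PCDHAC1, PCDHAC2, PCDHGC3, PCDHGC4 and PCDHGC5) are chosen less randomly than the rest. Different choices in different neurons let nerve cell branches recognise themselves.

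Most clustered protocadherin promoters share a short element around the letters CGCT, known from the literature as part of the CTCF-bound sequence of these promoters. The promoter table had an entry for 47 members, and for 46 of these at the gene's own 5' end. PCDHA3, PCDHA13, PCDHB6, PCDHB11, PCDHGA12 and PCDHGC5 had no entry, and the entry of PCDHGB2 lay at another start. CGCT read in the direction of the gene began 25 to 100 bases before the start in 43 of the 46 members, against 28.7% of 13792 protein-coding promoters. This range was set after the sequences were seen. Such a match is called the CGCT element below. These letters alone do not show that the longer CTCF-bound sequence is present. The 24 bases around it (GRCh38, plus strand, from RefSeq) are shown for the members with a histone mark at the start and for unmarked ones of each array, with CGCT in capitals. Apart from PCDHA1 and PCDHGC4, the unmarked ones were picked after their values were seen. Each unmarked one printed reads CGCTGT or CGCTGC. Of all 39 unmarked members examined, 19 read CGCTGT and 9 CGCTGC. Where a promoter held several matches, one that read CGCTGT or CGCTGC was taken first, then the match closest to 60 bases before the start.
PCDHA1 (unmarked): catgatgtCGCTgtacaccacaaa
PCDHA6 (unmarked): catgatgtCGCTgtctaccatgaa
PCDHA8 (unmarked): catgatgtCGCTgtctaccaagaa
PCDHAC1 (H3K4me1): ggtgtggtCGCTcacgttcaccgt
PCDHAC2 (H3K4me1): tccgggttCGCTgtccgccacttc
PCDHB2 (both marks): cggggtggCGCTgcagccttagaa
PCDHB3 (H3K4me1): catggtggCGCTgttgactaagaa
PCDHB13 (H3K4me1): cgtggtggCGCTgcaggataagaa
PCDHB10 (unmarked): cacggtggCGCTgcaggctaaaga
PCDHB15 (unmarked): catggtggCGCTgcaggctaaggc
PCDHGA3 (unmarked): cttagtgtCGCTgttgaccactca
PCDHGA5 (unmarked): ctgagtgtCGCTgttgaccaaagt
PCDHGB1 (both marks): ctgggcgcCGCTgtcgaccaaaag
PCDHGB4 (unmarked): ctgggcgcCGCTgttggccaaagt
PCDHGC3 (both marks): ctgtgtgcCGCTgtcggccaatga
PCDHGC4 (unmarked): ccgggagcCGCTgtctgccaatcg

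The bases after the shared letters differed between the arrays. The element read CGCTGT in 10 of 11 gamma A promoters and in 5 of 11 alpha promoters, and CGCTGC in 9 of 14 beta promoters. Among all 13792 promoters, 2.02% held CGCTGT and 4.71% CGCTGC as the match chosen by the same rule. A CGCT match in this range was found in 7 of 7 promoters with a mark and in 36 of 39 without. These counts cannot tell whether a match goes with the marks. The range was set after the members' sequences were seen, and nearly all members match. Whether the longer CTCF-bound sequence separates marked from unmarked members was not tested. PCDHA9, PCDHB5 and PCDHB8 had no match in that range. On either strand and anywhere in the 300 bases from 250 before to 50 after the start, CGCT was found in 45 of 46 members and in 81.3% of all promoters. A stretch common in CTCF sites, AGGNGGC on either strand, was found in 4 of 46 members and in 41.9% of all promoters.

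Few clustered protocadherin starts carried either mark in the resistant cells. H3K27ac lay within 1 kb of the start in 3 of 53 members (5.66%, exact Clopper-Pearson 95% interval 1.18 to 15.7), against 61.6% of the 15818 protein-coding genes with a known start. H3K4me1 lay there in 7 members (13.2%, 5.48 to 25.3), against 64.2% of genes, and in 2 members, PCDHGB1 and PCDHGC3, where at least 10 fragments were required (60.7% of genes). The 3 members with H3K27ac, PCDHB2, PCDHGB1 and PCDHGC3, also had H3K4me1, and both marks were called at 58.8% of all genes. PCDHAC1, PCDHAC2, PCDHB3 and PCDHB13 had H3K4me1 alone. The remaining 46 members (86.8%) had neither mark, against 33.1% of all genes. These intervals cover counting error only and treat genes as separate, although members lie side by side and resemble each other in sequence.

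**Figure D1:**
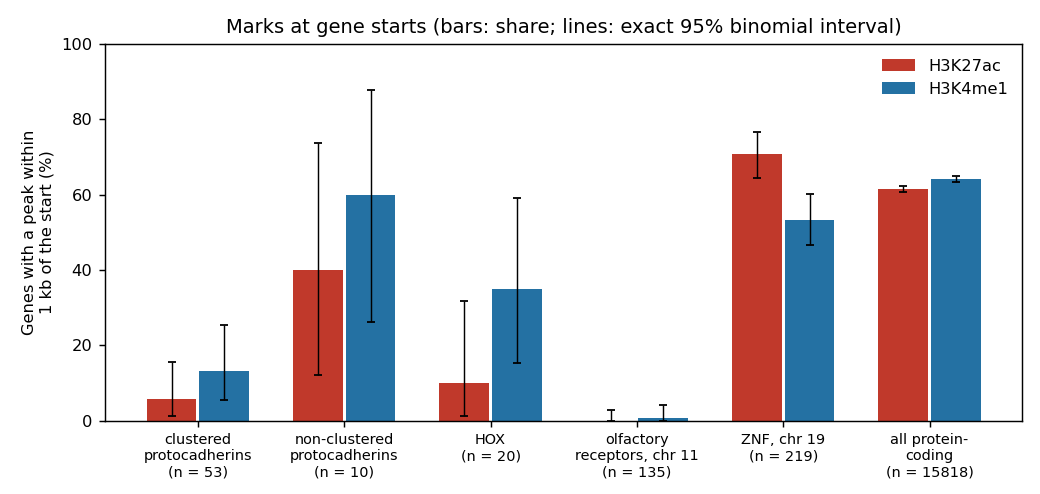
Share of genes (%) with a peak of each mark within 1 kb of the start, for the clustered protocadherins, 4 other gene sets and all protein-coding genes with a known start; bars are shares and lines exact 95% binomial intervals. The clustered protocadherins stand at 5.66% for H3K27ac and 13.2% for H3K4me1, against 61.6% and 64.2% of all genes.

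The signal at the marked starts was low beside that at other marked gene starts. The count of fragments over a summit was recovered from the deposited fold and p, and is given with an exact Poisson 95% interval for counting error. PCDHGC3 had 13 H3K27ac fragments (6.92 to 22.2), PCDHB2 had 17 (9.9 to 27.2) and PCDHGB1 had 6 (2.2 to 13.1). All 3 lay below the lower quartile of 39 fragments, and the median was 74, over the 9736 genes with H3K27ac at the start. The 7 H3K4me1 values were 19 fragments at PCDHGC3, 10 at PCDHGB1, 9 at PCDHAC2 and PCDHB3, 7 at PCDHB2 and 6 at PCDHAC1 and PCDHB13. All 7 lay below the lower quartile of 21 fragments over the 10149 genes with H3K4me1 at the start, whose median was 35. Over all peaks, at a gene start or not, the medians were 13 fragments for H3K27ac and 18 for H3K4me1. The lowest summit called in either list held 4 fragments, so weaker marks at the other members were not detectable at this depth and are not shown to be absent.

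PCDHGC3, a C-type gamma gene, had more peaks near its start than any other member, with a pair for each mark. It had H3K27ac peaks at chr5:141475826-141476046 and chr5:141476260-141476786, with summits 87 bases before the start (13 fragments, fold enrichment 8.98) and 456 bases after it (8 fragments, 3.45 to 15.8). H3K4me1 followed the same layout, with 19 fragments (11.4 to 29.7) at a summit 128 bases before the start and 17 (9.9 to 27.2) at a summit 449 bases after it. The bases between the peaks of each pair, where neither mark was called, lie just inside the gene. The peaks before the start hold the CGCT element of PCDHGC3, which begins 70 bases before it. PCDHGC4 and PCDHGC5, the next C-type genes, had neither mark, and their nearest H3K27ac summits were those of PCDHGC3, 8.61 and 12.7 kb away.

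PCDHB2, the second beta gene, had an H3K27ac peak of 17 fragments (fold enrichment 12.4) at chr5:141094543-141094874, with its summit 2 bases before the start. This was the 1 H3K27ac peak of the whole beta array. The peak holds the CGCT element. H3K4me1 did not overlap it and lay 823 bases into the gene, with 7 fragments (2.81 to 14.4). PCDHGB1, a gamma B gene, had both summits at its start, H3K27ac 24 bases before it (6 fragments, fold enrichment 4.84) and H3K4me1 5 bases before it (10 fragments, 4.8 to 18.4), and both peaks hold the element.

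At the 4 members with H3K4me1 alone, the mark took different places. In the alpha C-type genes it lay inside the gene, 315 bases after the PCDHAC1 start (6 fragments, 2.2 to 13.1) and 390 bases after the PCDHAC2 start (9 fragments, 4.12 to 17.1). In PCDHB3 the summit was 22 bases before the start (9 fragments), in a peak at chr5:141100434-141100531 that does not reach the CGCT element. PCDHB13 had a summit of 6 fragments 76 bases before the start and another of 8 fragments (3.45 to 15.8) 2.07 kb into the gene, and the peak before the start holds its CGCT element. PCDHB7 and PCDHB11 also had H3K4me1 inside the gene, 2.17 kb (4 fragments) and 1.77 kb (6 fragments) from the start, beyond the 1 kb limit. They were the members just outside the limit, and PCDHB2, at 0.823 kb, was the one just inside it. Beta exons are close copies of each other, and members of the other arrays also resemble each other in sequence. Whether reads that map to several copies were kept is not given in the sources used here. The part of this in the calls, and in the stretches without a peak described below, was not tested.

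**Figure D2:**
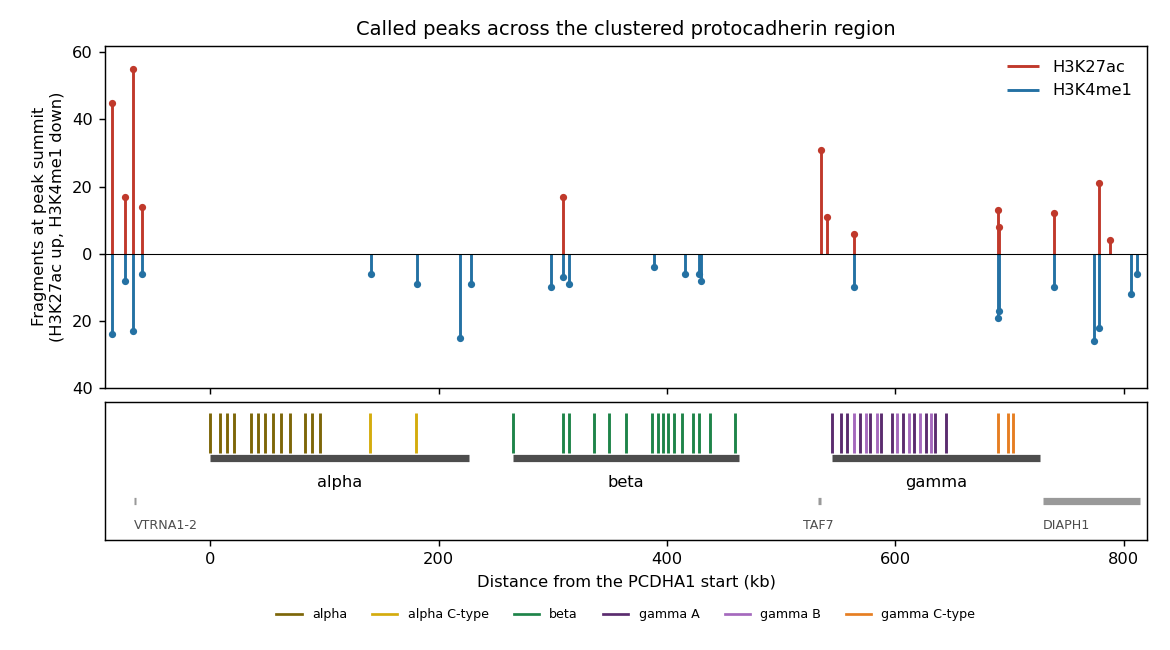
Peaks of the 900 kb window, by distance from the PCDHA1 start (kb); stems give the fragments at each summit, H3K27ac upward and H3K4me1 downward. Below, ticks mark the 53 starts by subfamily, dark bars the arrays and grey bars VTRNA1-2, TAF7 and DIAPH1, which is cut at the window's end. The alpha array holds no H3K27ac stem, and the highest H3K27ac stem (55 fragments) lies before it.

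The alpha genes carried no H3K27ac. No such peak was called in the 226.2 kb from the PCDHA1 start to the common alpha end, and H3K27ac was missing over 368.3 kb from chr5:140726241 to chr5:141094542, which holds the starts of all 15 alpha genes and PCDHB1. Of the 64761 stretches between neighbouring H3K27ac peaks, 1128 (1.74%) were at least as long. This is a share of their number, and such long stretches cover a larger share of the genome. None of the 13 alpha genes outside the C-type had either mark, and their starts lay 60.1 to 156 kb from the nearest H3K27ac summit (median 108) and 44.5 to 98.7 kb from the nearest H3K4me1 summit. H3K4me1 was missing over 200.6 kb, which holds the starts from PCDHA1 to PCDHAC1, since the peak of PCDHAC1 lies after its start.

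In the gamma array, a stretch of 125.7 kb without H3K27ac and of 125.6 kb without H3K4me1 held the same 15 starts, from PCDHGA4 to PCDHGA12. None of the 12 gamma A genes had either mark, and 1 of 7 gamma B genes and 1 of 3 gamma C-type genes had both. In the beta array, H3K4me1 was more scattered, with 7 peaks of 4 to 10 fragments over 198 kb, and 3 of 16 genes carried it at the start. Over all 53 members, the nearest H3K27ac summit lay at a median of 58.2 kb and the nearest H3K4me1 summit at 24.8 kb. The medians over all genes were 0.382 and 0.263 kb. The starts over 20 kb from a summit numbered 41 for H3K27ac and 30 for H3K4me1.

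**Figure D3:**
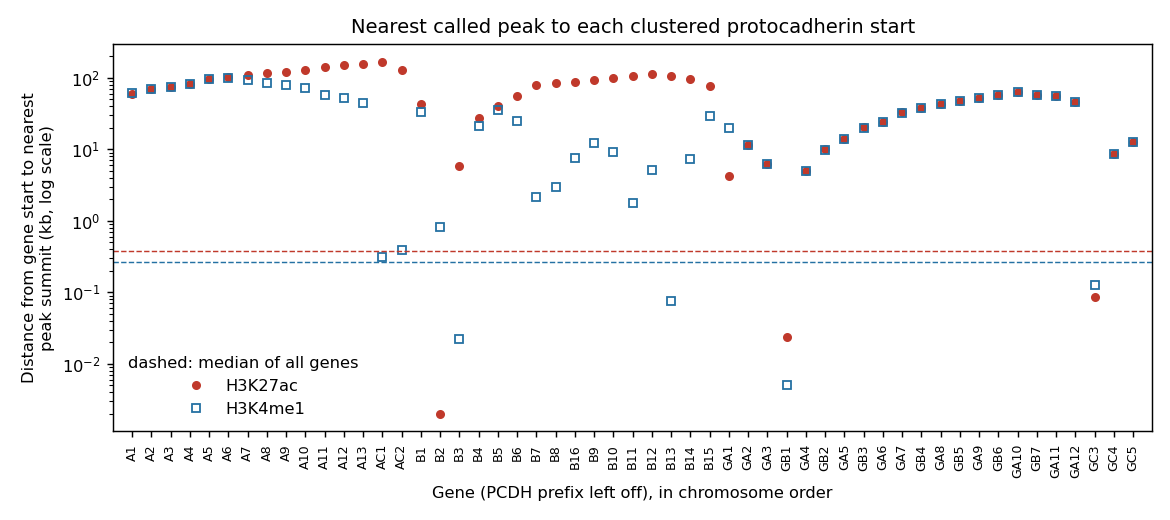
Distance from each start to the nearest peak summit (kb, log axis), with the 53 members in chromosome order and the PCDH prefix left off; filled circles are H3K27ac, open squares H3K4me1, and dashed lines the medians of all genes (0.382 and 0.263 kb). The distances fall under 1 kb for both marks at B2, GB1 and GC3 and for H3K4me1 alone at AC1, AC2, B3 and B13.

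Peaks were sparse within the arrays as a whole. The alpha, beta and gamma arrays together (606.7 kb) held 4 H3K27ac and 13 H3K4me1 peaks, or 6.59 and 21.4 per Mb, against 24.6 and 53.0 per Mb over all chromosomes used and 21.9 and 51.9 over chromosome 5. By array and mark, the H3K27ac density was 5.05 per Mb in the beta array and 18.6 per Mb in the gamma variable array. H3K4me1 reached 10.9 per Mb in the alpha variable array, 35.4 in the beta array and 18.6 in the gamma variable array. This order rests on shallow peaks: with at least 10 fragments, 0, 1 and 3 H3K4me1 peaks were left in the alpha variable, beta and gamma variable arrays, of 2, 7 and 3. H3K27ac then gave 1 peak in the beta array and 1 of 3 in the gamma variable array. In the whole window, 9 of 13 H3K27ac peaks (69.2%, 38.6 to 90.9) overlapped H3K4me1, and 9 of 23 H3K4me1 peaks (39.1%, 19.7 to 61.5) overlapped H3K27ac. Genome-wide the shares were 73.6% and 38.1%, inside those intervals.

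The 3' sides of the arrays hold the known enhancers of the locus, and marks were looked for there. In the constant part of the alpha array, an H3K4me1 peak of 25 fragments (16.2 to 36.9, fold enrichment 15.5) lay at chr5:141004222-141004610, 7.92 kb before the common alpha end. It was the H3K4me1 peak with the most fragments in any of the arrays and had no H3K27ac over it. A smaller H3K4me1 peak of 9 fragments (4.12 to 17.1) lay 2.2 kb past the alpha end, at chr5:141014506-141014610. No other peak was called in the 39.03 kb between the alpha end and PCDHB1. The files do not name regulatory elements, so these peaks were not assigned to known enhancers.

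Past the gamma array, both marks returned inside DIAPH1, a gene for a formin that builds actin filaments. The constant part of the gamma array itself (21.39 kb) had no peak of either mark. At 12 kb past the common gamma end, an H3K27ac peak of 12 fragments (6.2 to 21) and an H3K4me1 peak of 10 (4.8 to 18.4) overlapped at chr5:141524882-141525061. At 51.3 kb past it, both marks overlapped again, with 21 (13 to 32.1) and 22 (13.8 to 33.3) fragments. H3K4me1 without H3K27ac lay between these sites, at 47.4 kb, with 26 fragments (17 to 38.1). The 87.03 kb from the gamma end to the window's end held 3 H3K27ac and 5 H3K4me1 peaks, or 34.5 and 57.5 per Mb. These peaks lie in the body of DIAPH1, whose own start past the window had 97 H3K27ac fragments. Those at 47.4 and 51.3 kb also lie within DIAPH1-AS1, a long non-coding RNA gene. The lists do not tell which gene a peak serves.

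Of the 17 other genes and pseudogenes listed in the window outside the protocadherin families, 10 had neither mark within 1 kb of the start. They were SLC25A2, a mitochondrial carrier gene, and 9 long non-coding RNA genes and pseudogenes. For genes without a listed strand, the whole span and 1 kb on each side were searched. Among the 9, DIAPH1-AS1 had no peak at its start but held the peaks at 47.4 and 51.3 kb past the gamma end. The highest H3K27ac summit of the window, with 55 fragments (41.4 to 71.6), lay at VTRNA1-2, a vault RNA gene, 67.3 kb before PCDHA1. The vault RNA genes VTRNA1-1, which shares its first base with the long non-coding RNA gene LOC105378198, and VTRNA1-3 had 17 and 14 fragments, and all 3 also had H3K4me1 (8, 23 and 6 fragments for VTRNA1-1, VTRNA1-2 and VTRNA1-3). ZMAT2, a zinc finger gene, had 45 H3K27ac and 24 H3K4me1 fragments. Between the beta and gamma arrays, TAF7, which encodes a subunit of the general transcription factor TFIID, had 31 H3K27ac fragments (21.1 to 44) without H3K4me1. An H3K27ac peak of 11 fragments (5.49 to 19.7), also without H3K4me1, lay 4.25 kb before PCDHGA1, the first gamma gene.

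The promoters of most members were poor in CpG, the base pair step at which DNA methylation occurs. In the 300 bases from 250 before to 50 after the start, the 46 members had a median of 7 CpG sites (range 2 to 27) and 39.7% G and C, against medians of 22 sites and 62.7% over all promoters. The middle 50% of all promoters had 9 to 32 sites. Promoters of all genes with H3K27ac at the start had a median of 27 sites, and those of genes with neither mark 6. Among members, the 7 with a mark had 8 to 27 sites (median 12) and the 39 without had 2 to 23 (median 6), so the groups overlap. The C-type genes were among the richest, with 27 sites in PCDHAC1, 23 in the unmarked PCDHGC4, 18 in PCDHGC3 and 15 in PCDHAC2. To show the difference, the 250 bases before the start are given for PCDHGC3 (chr5:141475716-141475965), PCDHB2 (chr5:141094365-141094614) and the unmarked PCDHA1 (chr5:140785890-140786139), 5' to 3' on the plus strand of GRCh38 from RefSeq, with each CpG in capitals.
PCDHGC3: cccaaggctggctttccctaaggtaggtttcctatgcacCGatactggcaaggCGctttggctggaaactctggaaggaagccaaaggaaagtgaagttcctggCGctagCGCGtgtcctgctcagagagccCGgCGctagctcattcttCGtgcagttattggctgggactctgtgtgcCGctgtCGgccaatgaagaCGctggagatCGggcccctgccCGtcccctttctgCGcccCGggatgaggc
PCDHB2: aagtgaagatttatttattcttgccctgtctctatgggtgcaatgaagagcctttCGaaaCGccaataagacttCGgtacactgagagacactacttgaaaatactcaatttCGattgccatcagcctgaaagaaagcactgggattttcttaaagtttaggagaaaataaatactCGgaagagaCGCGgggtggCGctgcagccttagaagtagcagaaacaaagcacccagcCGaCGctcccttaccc
PCDHA1: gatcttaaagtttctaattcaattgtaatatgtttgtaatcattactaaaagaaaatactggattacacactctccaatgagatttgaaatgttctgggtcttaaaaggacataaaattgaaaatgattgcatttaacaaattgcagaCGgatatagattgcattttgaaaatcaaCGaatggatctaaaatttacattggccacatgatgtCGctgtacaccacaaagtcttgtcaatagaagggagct

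These windows hold 15 CpG sites at PCDHGC3, 10 at PCDHB2 and 3 at PCDHA1. The background share of marked starts itself rose with CpG. Among all promoters, H3K27ac was called at 12.8% of those with 0 to 5 sites, 35.7% with 6 to 10, 67.9% with 11 to 20 and 84.6% with 21 to 67. The members gave 0 of 13, 2 of 22, 1 of 9 and 0 of 2 in the same ranges. For H3K4me1 the background was 17.5%, 37.8%, 68.9% and 86.6%, and the members gave 0 of 13, 3 of 22, 3 of 9 and 1 of 2. DNA methylation was not measured.

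**Figure D4:**
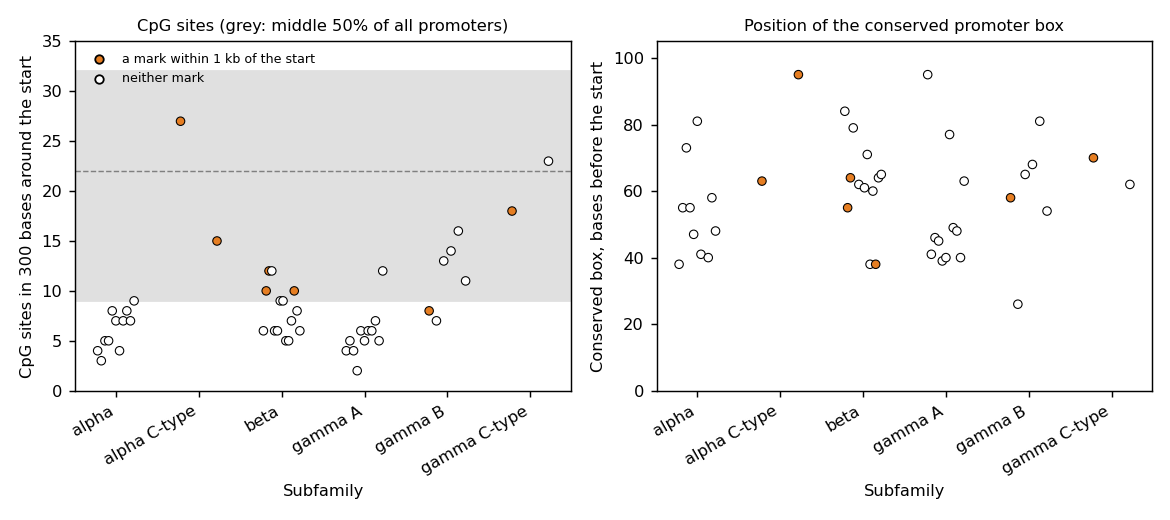
Left, CpG sites in the 300 bases around each start by subfamily, for 46 members; the grey band is the middle 50% of all promoters and the dashed line their median of 22. Right, bases between the CGCT element and the start in the 43 members that have it; filled points carry a mark within 1 kb of the start. The elements lie 38 to 95 bases before the start in marked and 26 to 95 in unmarked members, and the CpG counts of both overlap.

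Genes for factors of chromatin looping, promoter choice, DNA methylation and silencing, picked by name, were counted in the same way. Both marks were called at the start of 58.8% of all genes. Whether these factors act on the protocadherin promoters in these cells was not tested. Of 12 genes for looping and promoter choice, 11 had a known start, and all 11 carried both marks. CTCF, which binds the promoters, had 91 H3K27ac fragments (73.3 to 112) and 50 H3K4me1 fragments. ZNF143, a zinc finger factor found at chromatin loop anchors, and NIPBL, the cohesin loader, had the most H3K27ac (143 and 133 fragments), and WAPL, which releases cohesin, and REST, a repressor of neuronal genes, the least (78 and 42). Of 13 genes for DNA methylation and silencing, 11 carried both marks, and the interval for each mark (84.6%, 54.6 to 98.1) holds the share over all genes. SETDB1, a histone methyltransferase, had 155 H3K27ac fragments, EED, a Polycomb subunit, had 160, and the maintenance DNA methyltransferase DNMT1 had 70. TET1 and UHRF1 had no peak within 1 kb of the listed start. SMCHD1, a chromosomal protein known to act on the protocadherin arrays, had 112 H3K27ac and 20 H3K4me1 fragments.

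Of 12 protocadherin genes outside the arrays, 10 had a known start, of which 4 had H3K27ac (40%, 12.2 to 73.8) and 6 had H3K4me1 (60%, 26.2 to 87.8). Both intervals hold the shares over all genes, 61.6% and 64.2%. PCDH1, which also lies on chromosome 5, had 17 H3K27ac and 75 H3K4me1 fragments, and PCDH9 had 8 and 46. PCDH7 had 45 H3K4me1 fragments without H3K27ac, and PCDH8, PCDH12, PCDH15 and PCDH17 had neither mark. Of the 10 intracellular partners of the proteins with a known start, 9 had H3K27ac (90%, 55.5 to 99.7), an interval that holds the share over all genes, and all 10 had H3K4me1 (69.2 to 100%). BRK1, a subunit of the WAVE complex that drives actin branching, had 231 H3K27ac fragments and ABI1, another subunit, 106. FYN, a Src family kinase, had 15, and RET, a receptor tyrosine kinase, had no H3K27ac and 17 H3K4me1 fragments.

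Other gene families that lie in arrays were set beside the clustered protocadherins. Of the 135 olfactory receptor genes of chromosome 11 with a known start, 0 had H3K27ac (0 to 2.7%) and 1 had H3K4me1 (0.0188 to 4.06%). The H3K27ac interval overlaps that of the protocadherins (1.18 to 15.7%), and the H3K4me1 interval lies below theirs (5.48 to 25.3%). HOX genes with a known start gave 2 of 20 and 7 of 20. Those without a known start, such as HOXB13, were left out, so these shares do not cover the whole family. The ZNF genes of chromosome 19 gave 155 of 219 and 117 of 219. Their intervals (64.3 to 76.7% for H3K27ac and 46.6 to 60.2% for H3K4me1) lie above those of the protocadherins. The shares over all genes were 61.6% and 64.2%. The intervals of the HOX genes (1.23 to 31.7% for H3K27ac and 15.4 to 59.2% for H3K4me1) overlap those of the protocadherins, and the differences between families were not tested.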

How the data were processed

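The members and lists were chosen with earlier results of these data known. Reads were processed with BWA, MACS2 and the hg38 build, per the submitters' processing notes. Versions, settings, duplicate handling and any background library are not given in the sources used here. The deposited peak lists, 1 per library, hold for each peak a fold enrichment ratio at the summit, -log10 p, -log10 q and a score (10 times -log10 q). The highest deposited q-value was 0.0499 for H3K27ac and 0.0488 for H3K4me1. Sequencing depth is unknown. A whole number k of fragments and a background lambda were solved from the deposited fold, (k + 1) / (lambda + 1), and the Poisson p for more than k fragments, for 100% of 64784 and 139511 peaks on chromosomes 1 to 22 and X (tolerance 0.001 in -log10 p or a relative 0.0001). The step was tested on simulated data. Any PCR duplicates among the fragments would leave these intervals too short.

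The 5' end came from the RefSeq gene table (GRCh38.p14), with strand from the promoter table. Genes without a strand (4152) were left out. A further 6 genes without one are members and were kept, taken as plus like the other 47. A gene had a mark when a peak reached within 1 kb of that end. Other starts were used only in an alternative. Densities use the length from the first to the last peak of each chromosome, less stretches over 1 Mb without a peak. Intervals cover counting error only. All members were accounted for. Named are those with a mark at the start, PCDHA1, PCDHB1 and the C-type genes, and up to 3 peaks per mark and segment. Per list, the genes with the highest and lowest H3K27ac pileups are named. CTCF, DNMT1, SMCHD1, PCDH7, DIAPH1, DIAPH1-AS1, PCDHB7, PCDHB11 and the other members whose CGCT element is printed were named after their values were seen. Alternatives were other start windows, either gene end, -log10 q of at least 5, at least 10 fragments, summits in place of edges and stricter overlaps. Python 3.11.15, scipy 1.17.1 and pandas 2.3.3 were used.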

Additional observations from a re-analysis of the deposited data

How the results depend on the processing

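Of 71 alternatives to 21 counts, 63 stayed within 1.5 times the value reported and 8 did not; all 8 came from requiring deeper or more significant peaks, which leaves fewer peaks by construction. With at least 10 fragments at the summit, H3K4me1 was called at 2 member starts (PCDHGB1 and PCDHGC3) in place of 7. The H3K27ac peaks in the gamma variable array then numbered 1 in place of 3, and the H3K4me1 peaks 2 in place of 4 in the upstream flank, 0 in place of 2 in the alpha variable array, 0 in place of 1 between the alpha and beta arrays and 1 in place of 7 in the beta array. With -log10 q of at least 5, the alpha variable array held 1 H3K4me1 peak in place of 2 and the beta array 4 in place of 7. The gamma variable array held 3 H3K4me1 peaks under both settings. H3K27ac was called at 2 or 3 member starts under all 7 alternatives, and without PCDHGB1 where there were 2. H3K4me1 was called at 5 to 9 under the other 6. One alternative, any start in the promoter table, was chosen after seeing the data. No paired analysis was possible because each mark has 1 library and no result comes from a test.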

Other observations

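The 6 pseudogenes of the arrays (PCDHA14, PCDHB17P, PCDHB18P, PCDHB19P, PCDHGB8P and PCDHGB9P) had no peak of either mark within 1 kb of their spans.

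The 900 kb window holds 55 of the protein-coding starts used. The 32 other stretches of 900 kb with at least 30 such starts, laid end to end along the chromosomes and leaving out those that touch the window, had 3 to 130 H3K27ac peaks (median 68.5) and 12 to 183 H3K4me1 peaks (median 100.5). The window had 13 and 23, and 1 of these stretches had as few for each mark. Over all 3063 stretches with a peak, whatever their number of genes, the medians were 14 and 41.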
